A study of Mus musculus with 6 samples.

Results

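The ATF4 integrated stress response genes described here are 10 genes chosen by symbol: Atf4, Ddit3, Asns, Chac1, Trib3, Psat1, Phgdh, Shmt2, Sesn2 and Ppp1r15a. All 10 were among the 25033 gene symbols of the deposited count tables, and all 10 were tested. The study sequenced mRNA of green fluorescent (GFP+) cells that were sorted from the marrow of recipient mice and labelled as haematopoietic stem cells (HSCs), the cells from which blood lineages arise. Before transfer the HSCs had been treated with a miR-31-5p inhibitor in one group and with control RNA in the other, and each group held 3 libraries. MicroRNAs repress transcripts that pair with their seed. Both groups are labelled as C57BL/6J and 6 months of age, and the cells of both had been transplanted and carried GFP. The sources used here do not give the delivery of the inhibitor, the time after transplantation or the number of recipients. Whether each library is a separate animal is not stated, so p-values measure the spread between these libraries, which may be technical.

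The integrated stress response starts when one of a set of kinases phosphorylates the translation initiation factor eIF2, which slows most protein synthesis but raises the translation of Atf4 mRNA. The ATF4 protein, a bZIP transcription factor, then induces genes of amino acid synthesis and uptake, transfer RNA charging, redox balance and feedback, some of them together with its partner CHOP, the product of Ddit3. In HSCs the response is known to help cells survive amino acid shortage and other stress. Because ATF4 is set largely by translation and protein turnover, mRNA counts do not measure its activity.

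ATF4 with a C/EBP partner is known to bind a composite element whose core can be written TGATGNAA. The promoters of all 10 genes (RefSeq, GRCm38.p6, 250 bases before to 50 after the start site, 11 promoters in all) were searched for it on both strands. It was found at 3 genes, Chac1, Trib3 and Asns, and in 3.97% of all 32851 promoters of that length. The windows are printed because Chac1 and Trib3 showed the largest rises of the 10 genes while Asns, with a match of its own, did not pass the test, and capitals mark the element.
Chac1: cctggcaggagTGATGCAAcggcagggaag
Trib3: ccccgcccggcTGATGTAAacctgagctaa
Asns: tcccagccacaTGATGAAActtcccgcacg
The Chac1 window is chr2:119351038-119351067, minus strand, with the element at -193 to -186 from the start site and on the strand opposite to the gene. The Trib3 window is chr2:152344028-152344057, plus strand, with the element at 15 to 22 inside the transcript, again opposite to the gene. The Asns window is chr6:7693214-7693243, minus strand, at -23 to -16 on the strand of the gene. A match is a description of letters and not a measured binding site, and matches outside these windows were not searched for.

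The microRNA itself and its single match among the 10 genes are given next, with the seed (bases 2 to 8) and the matching site in capitals.
miR-31-5p: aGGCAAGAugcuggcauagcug
Psat1 site: tgactctcgttTCTTGCCacaagtagaaga
The mature microRNA lies at chr4:88910614-88910635, minus strand (RefSeq, GRCm38.p6). The Psat1 window is chr19:15905350-15905379, minus strand, in the longest 3′ UTR that GENCODE M21 annotates for Psat1, which is 1368 bases long and holds the site 678 bases after the stop codon. The longest annotated 3′ UTRs of the other 9 genes held no TCTTGCC. Of 12264 tested genes with such a UTR, 1699 (13.9%) held at least 1. Psat1 was lower in the inhibitor libraries (values below), so the 1 gene with a site was not among those that rose.

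Libraries held 16873188 to 21245861 counts, at which 3 counts equal 0.141 to 0.178 CPM, the counts scaled to a common library size. Replicate libraries were not duplicates, since every pair within a group varied beyond counting noise (chi-square per degree of freedom at least 3.04). Control library 1 stood apart from controls 2 and 3 on the second principal component (9.5% of the variance, against 70.8% on the first, which separated the groups), and precursor ribosomal RNA (Rn45s) had 1784 to 3145 counts in inhibitor libraries and 20039, 3667 and 61656 counts in control libraries 1 to 3. Each change below was therefore also computed without control libraries 1 and 3. Against the HSC label, the stem cell markers Procr, Mecom and Fgd5 were low, at 7.55, 0.38 and 0.41 CPM on average in inhibitor and 1.06, 0.64 and 0.10 CPM in control libraries. The progenitor marker Kit was at 406.2 and 401.9 CPM, and the granulocyte precursor gene Mpo at 4315 and 5202 CPM. The 10 HSC markers summed to 1048 to 1093 CPM in inhibitor and 985.5 to 1022 CPM in control libraries, with 3 markers higher and 2 lower. Summed over 4 megakaryocyte markers, the level was 2468 to 2578 CPM in inhibitor and 1114 to 1308 CPM in control libraries. All 4 of these markers were higher. Summed over 4 monocyte markers it was 2055 to 2119 and 3442 to 3529 CPM, with 2 markers lower, and over 4 granulocyte markers 4673 to 4780 and 5330 to 5886 CPM, with 1 higher and 2 lower. The 4 erythroid markers summed to 11.2 to 14.3 and 5.45 to 7.13 CPM, with 3 higher. The 4 dendritic cell markers summed to 996.3 to 1021 and 708.2 to 833.7 CPM, with 2 higher and 1 lower. The 4 endothelial or stromal markers summed to 140.8 to 150.5 and 116.1 to 126.9 CPM, with Pecam1 higher. Nearly all of that sum was Pecam1, at 145.4 and 122.3 CPM on average. Cdh5, Lepr and Cxcl12 averaged at most 0.28 CPM in either group and were not tested. The 3 T cell markers summed to at most 0.47 CPM in inhibitor and 1.16 CPM in control libraries, and Cd3e and Cd3g had at most 1 count in any library. In such bulk samples fewer cells of a type and less RNA per cell cannot be told apart, and the part of these cell type shifts in the changes below was not tested.

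The comparison of inhibitor with control libraries split the 10 genes. Chac1, Trib3, Ppp1r15a and Sesn2, which encode a glutathione-degrading enzyme and regulators that restrain the response or growth signalling, rose by 1.48- to 3.19-fold. Atf4 itself and Phgdh, Psat1 and Shmt2, enzymes of serine and glycine synthesis, fell by 1.24- to 1.53-fold. Asns and Ddit3 did not pass the threshold. In all, 4 of 10 were higher and 4 lower at an adjusted p of 0.05 (edgeR quasi-likelihood test, Benjamini-Hochberg), and the median log2 change was 0.09. Over all 12978 genes tested, 40.5% passed (20.4% higher and 20.1% lower), and the median log2 change was -0.01. Chac1, Trib3 and Ppp1r15a, 3 of the 10, were higher by at least 2-fold, against 5.37% of all genes tested. Chac1 met the filter on low counts only through the inhibitor group, so its being tested already implied a higher level there. The inhibitor and control libraries did not overlap for 8 of the 10 genes, against 52.4% of all genes tested. Because the 10 genes were chosen with earlier results of these data known, these shares are descriptions and do not test the pathway. Changes below are log2 changes, inhibitor over control, with their SE.

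**Figure D1:**
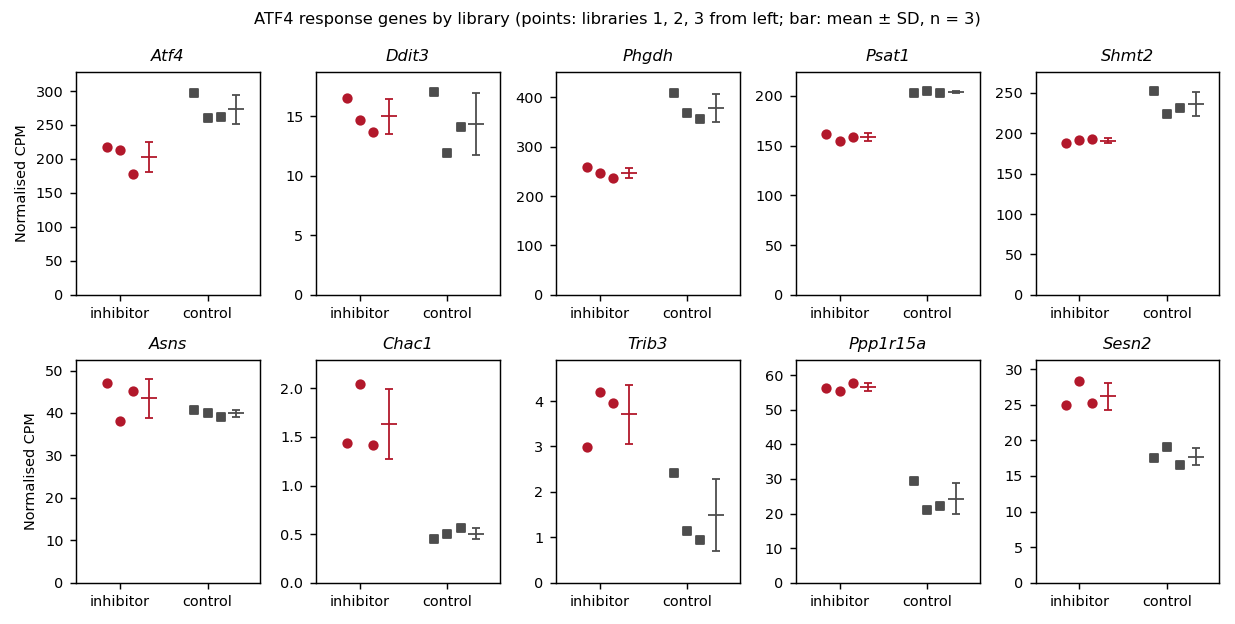
Normalised CPM of each of the 10 genes in each library, with the y axis starting at 0, inhibitor libraries as circles on the left and control libraries as squares on the right of each panel, and the mean ± SD beside them (n = 3). The groups are separate in 8 panels and overlap for Ddit3 and Asns.

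Of the transcription factors, Atf4 (chromosome 15, 80255184 to 80257545, RefSeq GRCm38.p6) had 218, 213 and 177.5 CPM in inhibitor libraries 1 to 3, against 297.8, 260.0 and 261.3 CPM in control libraries 1 to 3. Every inhibitor library lay below every control library, with inhibitor library 3 the lowest and control library 1 the highest. Atf4 averaged 202.9 ± 22.1 CPM in inhibitor and 273.0 ± 21.5 CPM in control libraries (SD, n = 3 each), a log2 change of -0.43 ± 0.08 (adjusted p = 0.000635, edgeR quasi-likelihood test, Benjamini-Hochberg). Without control library 1 it was -0.36, as it was without control libraries 1 and 3. Ddit3, which encodes the proapoptotic factor CHOP (chromosome 10, 127290793 to 127296291), had 16.5, 14.7 and 13.7 CPM in inhibitor libraries and 17.1, 11.9 and 14.1 CPM in control libraries. The groups overlapped, since the highest and the lowest values were both in controls. Its change was 0.07 ± 0.13 (adjusted p = 0.725, edgeR quasi-likelihood test, Benjamini-Hochberg), and its sign depended on which library was left out, from -0.05 without control library 2 to 0.21 without control library 1. Without control libraries 1 and 3 it was 0.33, with an adjusted p of 0.119 in the same edgeR test (range over its alternatives 0.119 to 0.957). Exons of Ddit3 share 68 bases with Mars on the other strand and the sources used here do not give the strand of counting, so a part of its reads could belong to Mars.

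Among the enzymes, Phgdh encodes phosphoglycerate dehydrogenase, the first step of serine synthesis from glucose (chromosome 3, 98313171 to 98339969). It had 258.4, 246.2 and 236.4 CPM in inhibitor libraries, against 409.6, 368.6 and 355.6 CPM in control libraries. The ranges of the groups lay far apart, and control library 1 was again the highest. The means were 247.0 ± 11.02 CPM in inhibitor and 377.9 ± 28.2 CPM in control libraries (SD, n = 3 each), a 1.53-fold fall (-0.61 ± 0.06, adjusted p = 1.52e-06, edgeR quasi-likelihood test, Benjamini-Hochberg). This was the largest fall among the 10 genes in both fold and CPM.

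Psat1, the aminotransferase of the next step (chromosome 19, 15905123 to 15925059), had 162.0, 154.9 and 159.1 CPM in inhibitor libraries and 203.3, 205.0 and 203.0 CPM in control libraries. The values within each group were close together and the groups were separate. The change was -0.36 ± 0.05 (adjusted p = 5.56e-05, edgeR quasi-likelihood test, Benjamini-Hochberg). Shmt2, the mitochondrial enzyme that turns serine into glycine and loads a one-carbon unit onto folate (chromosome 10, 127517123 to 127522444), had 187.9, 192.0 and 192.7 CPM in inhibitor libraries. Its control libraries had 252.2, 224.1 and 231.1 CPM, all higher than any inhibitor library. The change was -0.31 ± 0.06 (adjusted p = 0.000566, edgeR quasi-likelihood test, Benjamini-Hochberg), and -0.24 without control libraries 1 and 3. Exons of Shmt2 share 32 bases with Ndufa4l2 on the other strand.

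Asns encodes asparagine synthetase, a standard reporter of ATF4 activity (chromosome 6, 7675165 to 7693209). It had 46.99, 38.11 and 45.19 CPM in inhibitor libraries and 40.67, 39.93 and 39.16 CPM in control libraries. Inhibitor libraries 1 and 3 lay above all controls and inhibitor library 2 below them. The change was 0.12 ± 0.08 (adjusted p = 0.257, edgeR quasi-likelihood test, Benjamini-Hochberg). Without inhibitor library 2 it was 0.21, with an adjusted p of 0.0716 in the same edgeR test (range over its alternatives 0.0716 to 0.659).

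The largest rise was in Chac1, which encodes a gamma-glutamylcyclotransferase that breaks down glutathione (chromosome 2, 119351242 to 119354326). It had few reads: 28, 35 and 24 counts in inhibitor libraries (1.44, 2.04 and 1.42 CPM), against 9, 10 and 12 counts in control libraries (0.45, 0.50 and 0.56 CPM). Each inhibitor library held at least 24 counts and each control library at most 12, so the groups were separate although the level was low in both. The change was 1.67 ± 0.35, or 3.19-fold (adjusted p = 0.00143, edgeR quasi-likelihood test, Benjamini-Hochberg), and between 1.48 and 1.76 with any 1 library left out. Chac1 was the 1 gene of the 10 that met the filter on low counts only through the inhibitor group, in which 3 libraries reached it, against 1 control library. Its presence among the tested genes therefore already implied a higher inhibitor level.

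Trib3, the pseudokinase that binds ATF4 and CHOP and restrains them in negative feedback (chromosome 2, 152337425 to 152344060), had 58, 72 and 67 counts in inhibitor libraries (2.978, 4.202 and 3.958 CPM). In control libraries it had 48, 23 and 20 counts (2.41, 1.15 and 0.94 CPM). Control library 1 lay well above the other controls and close to inhibitor library 1, the lowest of its group, but the groups did not overlap. The change was 1.31 ± 0.31, or 2.47-fold (adjusted p = 0.00355, edgeR quasi-likelihood test, Benjamini-Hochberg). Leaving out control library 1, 2 or 3 gave 1.82, 1.16 or 1.06, past the threshold each time.

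Ppp1r15a encodes GADD34, the stress-induced subunit that directs a phosphatase to eIF2 and so ends the response (chromosome 7, 45522917 to 45526268). It had 56.2, 55.5 and 57.7 CPM in inhibitor libraries, against 29.5, 21.1 and 22.2 CPM in control libraries. The inhibitor values were tightly grouped and all lay well above control library 1, the highest control. Its exons share 12 bases with Tulp2 on the other strand. The means were 56.5 ± 1.16 CPM in inhibitor and 24.3 ± 4.53 CPM in control libraries (SD, n = 3 each), a 2.33-fold rise (1.22 ± 0.10, adjusted p = 3.3e-07, edgeR quasi-likelihood test, Benjamini-Hochberg). The change was 1.41 without control libraries 1 and 3. Ppp1r15a also responds to growth factors, DNA damage and cell handling, so it is not a marker of ATF4 alone.

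Sesn2 encodes sestrin 2, a leucine-binding restraint on the growth kinase complex TORC1 that both ATF4 and p53 induce (chromosome 4, 132492804 to 132510456). It had 24.96, 28.37 and 25.17 CPM in inhibitor libraries and 17.47, 19.04 and 16.59 CPM in control libraries. The highest control library lay below the lowest inhibitor library. The change was 0.56 ± 0.10, or 1.48-fold (adjusted p = 0.00031, edgeR quasi-likelihood test, Benjamini-Hochberg), and 0.45 without control libraries 1 and 3.

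**Figure D2:**
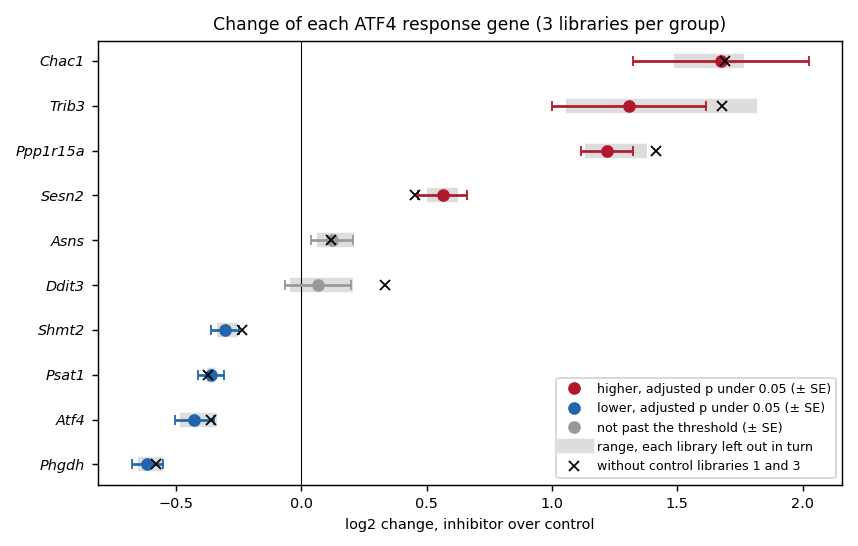
Log2 change of each gene, inhibitor over control, with its SE (points and bars), the range with each library left out in turn (grey) and the value without control libraries 1 and 3 (crosses). Chac1 and Phgdh are at the 2 ends, at 1.67 and -0.61, and the range of Ddit3 crosses 0.

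Per transcript length, the 4 genes that fell were the 4 most abundant. In CPM per kb of the longest transcript, Phgdh was at 132.0 ± 5.89 in inhibitor and 202.0 ± 15.1 in control libraries, Atf4 at 117.3 ± 12.8 and 157.9 ± 12.4, Shmt2 at 83.1 ± 1.15 and 102.7 ± 6.36, and Psat1 at 73.0 ± 1.65 and 93.8 ± 0.49 (SD, n = 3 each). Trib3, at 1.81 ± 0.32 in inhibitor and 0.73 ± 0.39 in control libraries, and Chac1, at 1.04 ± 0.23 and 0.32 ± 0.04, were the lowest in both groups. Ppp1r15a was at 24.2 ± 0.50 CPM per kb in inhibitor libraries, next below Psat1, and at 10.4 ± 1.94 CPM per kb in control libraries, below Asns and Ddit3. In between, Asns was at 22.2 ± 2.39 and 20.4 ± 0.39, Ddit3 at 17.2 ± 1.65 and 16.5 ± 2.99, and Sesn2 at 9.86 ± 0.72 and 6.67 ± 0.47 CPM per kb. All neighbours in either order were separate over the libraries, except Ppp1r15a and Asns in the inhibitor group. The share of calls in each direction among all tested genes varied with level. Of 1668 tested genes with a mean of at least 50 CPM per kb over the 6 libraries, 37.6% were lower and 15.5% higher, and all 4 members in that class were lower. Of 4075 tested genes under 5 CPM per kb, 9.57% were lower and 25.2% higher, and both members in that class, Chac1 and Trib3, were higher. Chac1 was tested only through the inhibitor group, as given above.

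**Figure D3:**
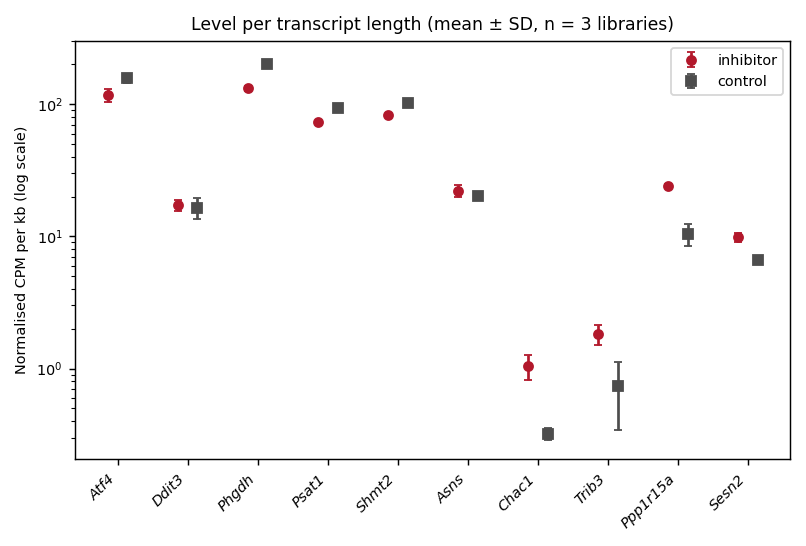
Normalised CPM per kb of the longest transcript, on a log axis, as mean ± SD over the 3 inhibitor libraries (circles, left of each pair) and the 3 control libraries (squares). Levels run from about 1 for Chac1 to 132 for Phgdh in inhibitor libraries, and the serine enzymes and Atf4 lie at the top in both groups.

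Upstream of Atf4, transcripts of the eIF2 kinases differed little. None of the 4 kinase genes passed at an adjusted p of 0.05, against 40.5% of all genes tested. Eif2ak1, the haem-regulated kinase HRI, changed by 0.02 ± 0.06, Eif2ak3, the endoplasmic reticulum kinase PERK, by -0.01 ± 0.08, and Eif2ak4, the amino acid sensor GCN2, by -0.02 ± 0.07. Eif2ak2, the double-stranded RNA sensor PKR, had a change of -0.08 ± 0.08 and passed only when control library 1 was left out (-0.17). These are transcript levels, and kinase activity was not measured. Subunits of eIF2 and of its exchange factor eIF2B had 3 lower calls among 8 genes (37.5%) and a median of -0.11. Over all genes tested 20.1% were lower, a share that varied with level as given above. Eif2b5, the catalytic subunit, fell by 0.27 ± 0.07 on the log2 scale and lost the call without control libraries 1 and 3. Eif2s1, which encodes the phosphorylated subunit, fell by 0.15 ± 0.05 and Eif2b3 by 0.31 ± 0.11. Both lost the call without control library 2 or 3 or inhibitor library 2 or 3, and Eif2s1 also without inhibitor library 1.

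Among 7 genes of eIF2 dephosphorylation or eIF2 kinase inhibition, Ppp1r15a not counted, calls were 1 higher (14.3%) and 3 lower (42.9%). All genes tested gave 20.4% and 20.1%. The median over the 7 was -0.13. Ppp1r15b, the constitutive counterpart of Ppp1r15a, had a change of -0.13 ± 0.05 and did not pass (adjusted p = 0.0672, edgeR quasi-likelihood test, Benjamini-Hochberg, range with 1 library left out 0.0316 to 0.226, the lowest without control library 1). The catalytic subunit genes Ppp1ca (-0.26 ± 0.07) and Ppp1cc (-0.21 ± 0.05) fell, and Ppp1cb (0.12 ± 0.06) did not pass. Nck1, an adaptor that binds the phosphatase, fell by 0.31 ± 0.09, and Impact, an inhibitor of GCN2, rose by 0.31 ± 0.07. Dnajc3, a chaperone known as an inhibitor of eIF2 kinases, had 0.12 ± 0.06 and did not pass. Without inhibitor library 3, Ppp1ca and Nck1 no longer passed (adjusted p = 0.0755 and 0.0618 in the same edgeR test), nor did they without control libraries 1 and 3.

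Among 12 bZIP factors that pair with ATF4 or CHOP there were 2 higher and 6 lower calls, and the median was -0.19. Over all genes tested 20.4% were higher and 20.1% lower, shares that varied with level as given above. Atf3, a repressor induced by ATF4 and by many other stresses, had 54.2, 56.9 and 58.3 CPM in inhibitor libraries, against 32.0, 32.1 and 27.0 CPM in control libraries. It rose by 0.89 ± 0.08, with the groups far apart. Cebpg, the partner of ATF4 at amino acid response genes, fell by 0.42 ± 0.06, and Cebpd by 0.47 ± 0.09. Maf, a macrophage and T cell factor, fell by 0.62 ± 0.09. The other higher call, chosen after its values were seen, was the dendritic cell factor Batf3, at 1.95, 1.28 and 2.13 CPM in inhibitor libraries and 0.50, 0.20 and 0.94 CPM in control libraries. Batf3 met the filter on low counts (0.508 CPM) only through the inhibitor group, so it was among the tested genes because it was higher there.

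A list of further ATF4 target genes, 38 of them tested, held 14 higher (36.8%) and 9 lower (23.7%) calls, against 20.4% and 20.1% of all genes tested. Its median was -0.05, and 0.07 without control libraries 1 and 3. The 4 with the smallest p-values all rose. They were Hmox1, haem oxygenase (2.17 ± 0.07), the cystine transporter gene Slc7a11 (1.93 ± 0.11), the lipoprotein receptor gene Vldlr (1.32 ± 0.07) and Atf3. Hmox1 and Slc7a11 are also targets of NRF2. By contrast Mthfd2, a mitochondrial folate enzyme and a common marker of ATF4 activity, chosen after its values were seen, had 69.4, 69.0 and 69.5 CPM in inhibitor libraries, against 73.6, 66.6 and 73.9 CPM in control libraries. The inhibitor values lay inside the control range, and the change was -0.04 ± 0.06. Of the 23 calls in this list, 15 held with each library left out in turn.

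**Figure D4:**
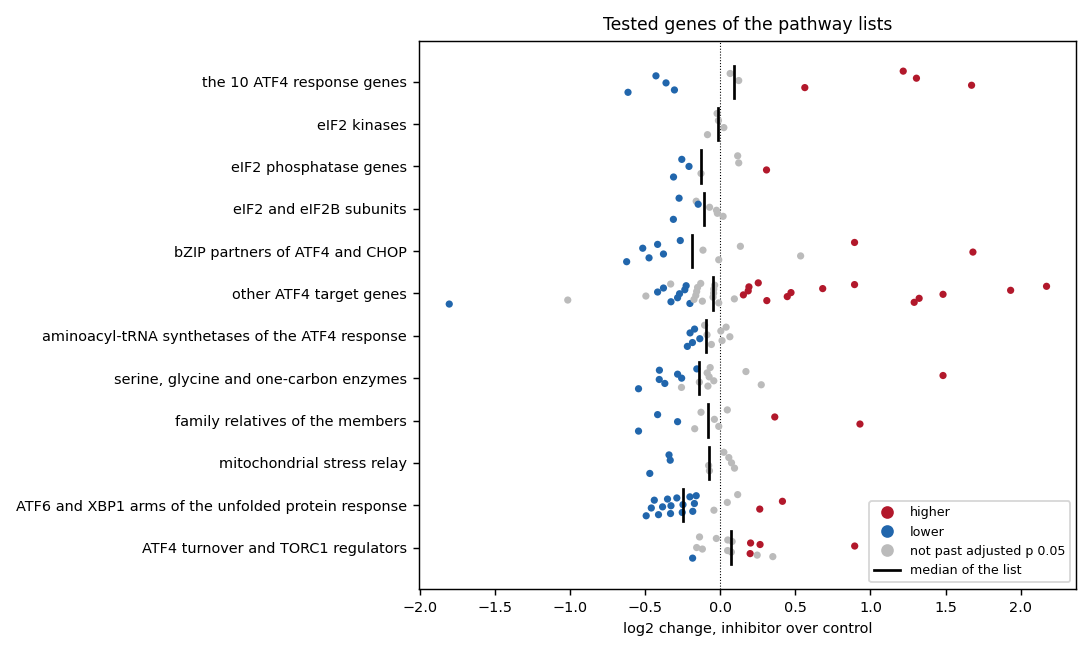
Log2 change, inhibitor over control, of every tested gene of the 10 ATF4 response genes (top row) and of 11 related lists, coloured by direction where the adjusted p was under 0.05, with each list's median as a bar. The 10 genes spread from -0.61 to 1.67 around a median of 0.09. In the ATF6 and XBP1 row 15 of 20 genes are called lower, against 20.1% of all genes tested.

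The list of other serine, glycine and one-carbon enzymes, 17 of them tested, held 1 higher (5.88%) and 7 lower (41.2%) calls. All genes tested gave 20.4% and 20.1%. The median of the list was -0.14. Shmt1, the cytosolic counterpart of Shmt2, fell by 0.54 ± 0.09, Mthfd1 by 0.37 ± 0.07 and its mitochondrial relative Mthfd1l by 0.41 ± 0.06. Psph, the last enzyme of serine synthesis, was chosen after its values were seen. It had 17.7, 16.2 and 17.0 CPM in inhibitor libraries and 23.8, 18.7 and 19.5 CPM in control libraries, without overlap. Its change of -0.28 ± 0.11 was only just past the threshold (adjusted p = 0.0497, edgeR quasi-likelihood test, Benjamini-Hochberg, range over its alternatives 0.0288 to 0.495), and -0.17 without control library 1. The 1 higher call, Aldh1l2, a mitochondrial folate dehydrogenase also chosen after its values were seen, had 12, 17 and 25 counts in inhibitor libraries, against 6, 7 and 9 counts in control libraries. No control library reached the filter on low counts, so Aldh1l2 was tested only through the inhibitor group, where it was higher. Its change of 1.48 ± 0.45 did not pass without inhibitor library 3 (adjusted p = 0.103 in the same edgeR test, range over its alternatives 0.00965 to 0.136).

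**Figure D5:**
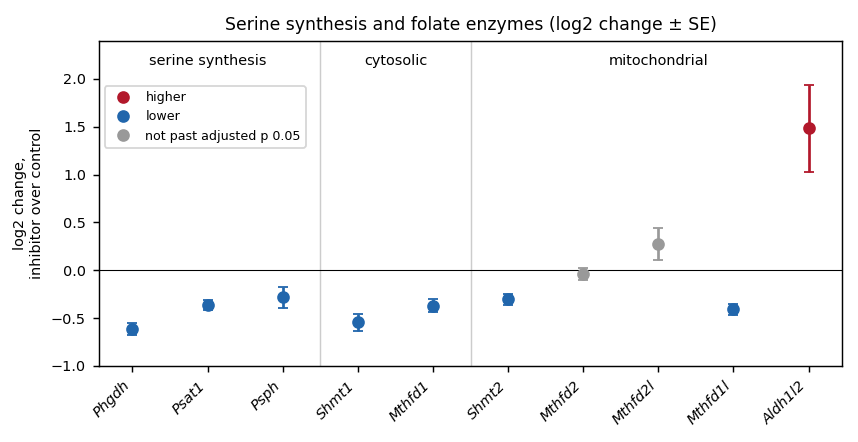
Log2 change ± SE, inhibitor over control, of the 3 enzymes of serine synthesis and of cytosolic and mitochondrial folate enzymes, coloured by direction where the adjusted p was under 0.05. The serine synthesis enzymes and both cytosolic enzymes are below 0, and Aldh1l2, with at most 25 counts in a library, is the 1 enzyme called higher.

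Cytosolic aminoacyl-tRNA synthetases, which ATF4 also induces, had 5 lower calls among 12 (41.7%, against 20.1% of all genes tested) and a median of -0.10. Mars, which charges transfer RNA with methionine, fell by 0.22 ± 0.06 and was the 1 of the 5 that held with each library left out. Nars (-0.17 ± 0.05) lost the call without control library 3 or inhibitor library 2 or 3, Tars (-0.19 ± 0.06) without inhibitor library 1 or 2, and Yars (-0.20 ± 0.06) without inhibitor library 1 or 3. The remaining call, Eprs, was chosen after its values were seen (-0.14 ± 0.05). It was lost when any library other than control library 1 was left out, with RLE size factors, with no filter or the stricter filter, with the replicate block and in DESeq2. Of the family relatives of the 10 genes, 2 of 10 were higher, 3 lower and 5 not past the threshold (median -0.08). The shares over all genes tested were 20.4% higher and 20.1% lower. Trib1, a relative of Trib3 that directs C/EBP proteins to degradation, had 13.1, 14.3 and 14.6 CPM in inhibitor libraries and 6.98, 7.60 and 7.43 CPM in control libraries. It rose by 0.93 ± 0.12. Sesn3, a relative of Sesn2, rose by 0.36 ± 0.12 and lost the call without control library 3 or inhibitor library 3. The 3 lower relatives were Cebpg, Shmt1 and Psph, given above.

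Most genes of the other arms of the unfolded protein response fell. The 20 genes induced by ATF6 or XBP1 or acting in those arms had 2 higher and 15 lower calls (75.0%) and a median of -0.25, and 12 calls held with each library left out. The 2 higher genes, chosen after their values were seen, were Edem1 (0.26 ± 0.06) and Dnajb9 (0.41 ± 0.10), and Dnajb9 lost its call without control libraries 1 and 3 (0.24). Calr, the chaperone calreticulin, had 1666, 1663 and 1656 CPM in inhibitor libraries, against 2508, 2194 and 2312 CPM in control libraries. It fell by 0.49 ± 0.06, the disulfide isomerase gene Pdia6 by 0.46 ± 0.06, Hyou1 by 0.41 ± 0.06 and Dnajb11 by 0.38 ± 0.06. The mitochondrial stress relay list, which also holds mitochondrial chaperone and protease genes, had 3 lower calls among 9 (33.3%). Over all genes tested 20.1% were lower, and the median of the list was -0.07. The other 6 genes did not pass, among them those of the relay to eIF2: Eif2ak1, Oma1 (0.075 ± 0.106) and Dele1 (-0.077 ± 0.074). The chaperonin gene Hspd1 fell by 0.47 ± 0.05 and the protease gene Lonp1 by 0.34 ± 0.07, and Clpp fell by 0.33 ± 0.11 but lost the call without inhibitor library 1 or 2.

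Regulators of ATF4 turnover and of TORC1, which raises Atf4 mRNA and its translation, had 4 higher (26.7%) and 1 lower (6.67%) calls among 15. All genes tested gave 20.4% and 20.1%. The median of the 15 was 0.07. Castor2, a relative of the arginine sensor of TORC1, had 24.55, 28.95 and 25.52 CPM in inhibitor libraries, against 14.9, 13.2 and 14.4 CPM in control libraries. It rose by 0.90 ± 0.10, and Tsc2, a brake on TORC1, by 0.27 ± 0.06. Fbxw11, a ligase subunit that marks ATF4 for degradation, rose by 0.20 ± 0.05 and Rheb, the activator of TORC1, by 0.20 ± 0.07. Fbxw11 lost the call without inhibitor library 2, and Rheb without control library 3 or inhibitor library 2 or 3. The 1 lower call, chosen after its values were seen, was Tsc1, the partner of Tsc2 (-0.18 ± 0.07). It was lost without control library 3 or inhibitor library 1 or 3, without control libraries 1 and 3, with RLE size factors and in DESeq2.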

How the data were processed

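The authors deposited raw read counts per RefSeq gene symbol, 1 table per library, with the longest transcript length. Deposited RPKM values, which per the file headers stand beside the counts, were used only as an alternative level per length. The build mm10 and bcl2fastq 2.20 come from the submitters' processing notes. The sources used here do not give the aligner, counter or strand of counting, and 0 columns belonged to other samples.

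The filter was filterByExpr at a minimum count of 10 and a minimum total of 15, and 12978 genes passed. The test was the robust quasi-likelihood test of edgeR 4.0.16 under R 4.3.3 after TMM scaling, whose factors were 0.985 to 1.008. P-values were adjusted over all tested genes (Benjamini-Hochberg) at a threshold of 0.05. Levels are TMM-normalised CPM as mean ± SD, and no gene set was tested. On simulated data with 50 genes changed at each fold, 18, 40, 44 and 48 were recovered at 1.25-, 1.5-, 2- and 4-fold among 12978 genes, with 10 unchanged genes called. The simulation had 160 calls in all, against 5259 in the data. Its recovery and its number of false calls therefore need not carry over to the data.

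The 10 genes and the lists were chosen with earlier results of these data known. Named genes were the 10, every gene of the kinase and phosphatase lists, and the 4 smallest p-values past the threshold of each other list with a mean of at least 10 counts, apart from items that are not reported here. The alternatives were RLE size factors, no filter, a stricter filter (1 CPM in all libraries of a group, mean of 10 counts), a replicate block, each library left out, control libraries 1 and 3 left out, DESeq2 1.42.0, limma-voom (limma 3.58.1), an adjusted p of 0.01 and deposited RPKM. Counting limits cover counting error only. GENCODE M21 (GRCm38) gave UTRs and exon overlaps, and Python 3.11.15 was used.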

Additional observations from a re-analysis of the deposited data

How the results depend on the processing

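The count of 8 called genes among the 10, 4 higher and 4 lower, was the same under all 14 alternatives. Over all genes, 5259 calls became 3438 at an adjusted p of 0.01 and 4058 to 5692 with 1 library left out. The labels do not say that replicate numbers pair the libraries. Same-numbered deviations correlated weakly, at 0.058, 0.008 and 0.037, though each inhibitor library correlated best with its own number. With 3 libraries per group this cannot exclude pairing. The replicate block gave 5673 calls and changed none of the 10. Ddit3 changed sign, not past the threshold, within -0.05 to 0.21 with 1 library left out, at -0.047 without control library 2 and -0.013 without inhibitor library 1. The cause was not tested. Without control libraries 1 and 3 the lone control library is assumed to vary like the inhibitor libraries.

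Counts of small lists moved by over 1.5 times as follows. With 1 library left out, they ranged down to 1 of 3 eIF2 and eIF2B calls, 2 of 4 phosphatase calls, 2 of 5 synthetase calls, 5 of 8 one-carbon calls, 3 of 5 relatives and 3 of 5 turnover and TORC1 calls, and up to 1 from 0 kinases. At an adjusted p of 0.01 the eIF2 and eIF2B, synthetase, one-carbon, relatives and turnover lists held 1, 1, 5, 3 and 3 calls. Without control libraries 1 and 3 the phosphatase, relatives and turnover lists held 2, 3 and 3. Deposited RPKM moved 2 of 20 levels by more than 1 SD, to 19.6 for Asns and 90.1 for Psat1 in control libraries. Chac1, with 9 to 35 counts, and Trib3, with 20 to 72, are the least precise of the 10. Without control libraries 1 and 3, Ppp1ca, Nck1, Eif2b5, Sesn3, Clpp, Rheb, Tsc1, Dnajb9, Psph and Aldh1l2 lost their calls. Eif2s1 did so with no filter and in DESeq2, and Psph with RLE size factors, the stricter filter, DESeq2 and limma-voom.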
